A study of Rattus norvegicus with 12 samples.

Results

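The genes described here are 9 genes known from the epithelium of the choroid plexus, Ttr, Sostdc1, Kl, Folr1, Kcnj13, Clic6, Slc4a5, Aqp1 and Otx2, out of 34525 genes in the table. Each name matched a single row, and all 9 were listed as protein coding. The genes were chosen by name with values of these libraries already known: the thalamus levels, in which most of them stood far higher in 2 CFA libraries than elsewhere, selected them. The thalamus values below are therefore a description and support nothing by themselves. RNA sequencing had been run on 12 rat libraries from a series on chronic orofacial pain, 3 for each of the groups thalamus CFA, thalamus saline, RVM CFA and RVM saline. The thalamus relays sensory input to the cortex, and the RVM (rostral ventral medulla) is a brainstem region with descending control over pain signals. The saline groups carry the label 0.9% NS. The treated groups carry the letters CFA, which in pain studies commonly mean complete Freund's adjuvant, an inflammatory oil emulsion. Strain, sex, age, genotype, dose, injection site, time and number of animals are not given in the labels, so a p-value here covers only the spread between libraries, which may be technical.

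The choroid plexus is a sheet of secretory epithelium over a vascular core that hangs into the brain ventricles and makes cerebrospinal fluid. Its cells carry ion transporters and water channels that drive fluid secretion, take up folate and other nutrients from blood, and release carrier proteins into the fluid. The dorsal thalamus borders the third ventricle, and the RVM lies ventral to the fourth, both of which hold choroid plexus. In these bulk samples, more or fewer choroid cells and more or less RNA per cell cannot be told apart.

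The table gives coordinates without naming their genome build, which is also not named elsewhere in the labels. In these coordinates Ttr lies at chr18:15532963-15540177 (minus strand), Sostdc1 at chr6:55812747-55817066 (plus), Kl at chr12:943006-987551 (plus) and Folr1 at chr1:166934460-166943592 (minus). Kcnj13 lies at chr9:94487224-94495333 (minus), Clic6 at chr11:32655616-32699382 (plus), Slc4a5 at chr4:114918488-115002300 (plus), Aqp1 at chr4:85551502-85569360 (plus) and Otx2 at chr15:25517721-25521393 (minus). The genes are thus spread over 8 chromosomes, and the values are totals over each whole gene.

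Values are FPKM as the authors deposited them, that is, fragment numbers corrected for the length of the gene and the size of the library. The reads behind each value could be recovered from FPKM and gene length, and the libraries held 14.94 to 19.24 M reads on genes. The total by which the authors divided was 1.109 to 1.168 times the recovered total in thalamus CFA and 0.961 to 1.042 times in thalamus saline. This gap is far smaller than the excess in thalamus CFA 1 and 2 given below. It is not smaller than some differences between thalamus CFA 3 and saline, such as those of Folr1 and Kcnj13. Thalamic neuron genes marked the regions as labelled. All 10 of them were higher in saline thalamus than in saline RVM, and all 5 hindbrain genes tested were lower.

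In thalamus CFA libraries 1 and 2, transcripts of 8 of the 9 genes stood above every other library, with library 1 highest and library 2 second of 12. This order held for 3.25% of the 14671 genes whose mean was 1 FPKM or more. Thalamus CFA library 3 did not share these levels: it lay near the saline thalami for all 9 genes. The reads of the 9 genes made up 0.941%, 0.217% and 0.00288% of all reads in thalamus CFA 1, 2 and 3, and 0.00389%, 0.000899% and 0.00143% in thalamus saline 1, 2 and 3. In the RVM the share was 0.0017%, 0.000852% and 0.0011% in CFA 1, 2 and 3, and 0.00108%, 0.00102% and 0.000921% in saline 1, 2 and 3.

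**Figure D1:**
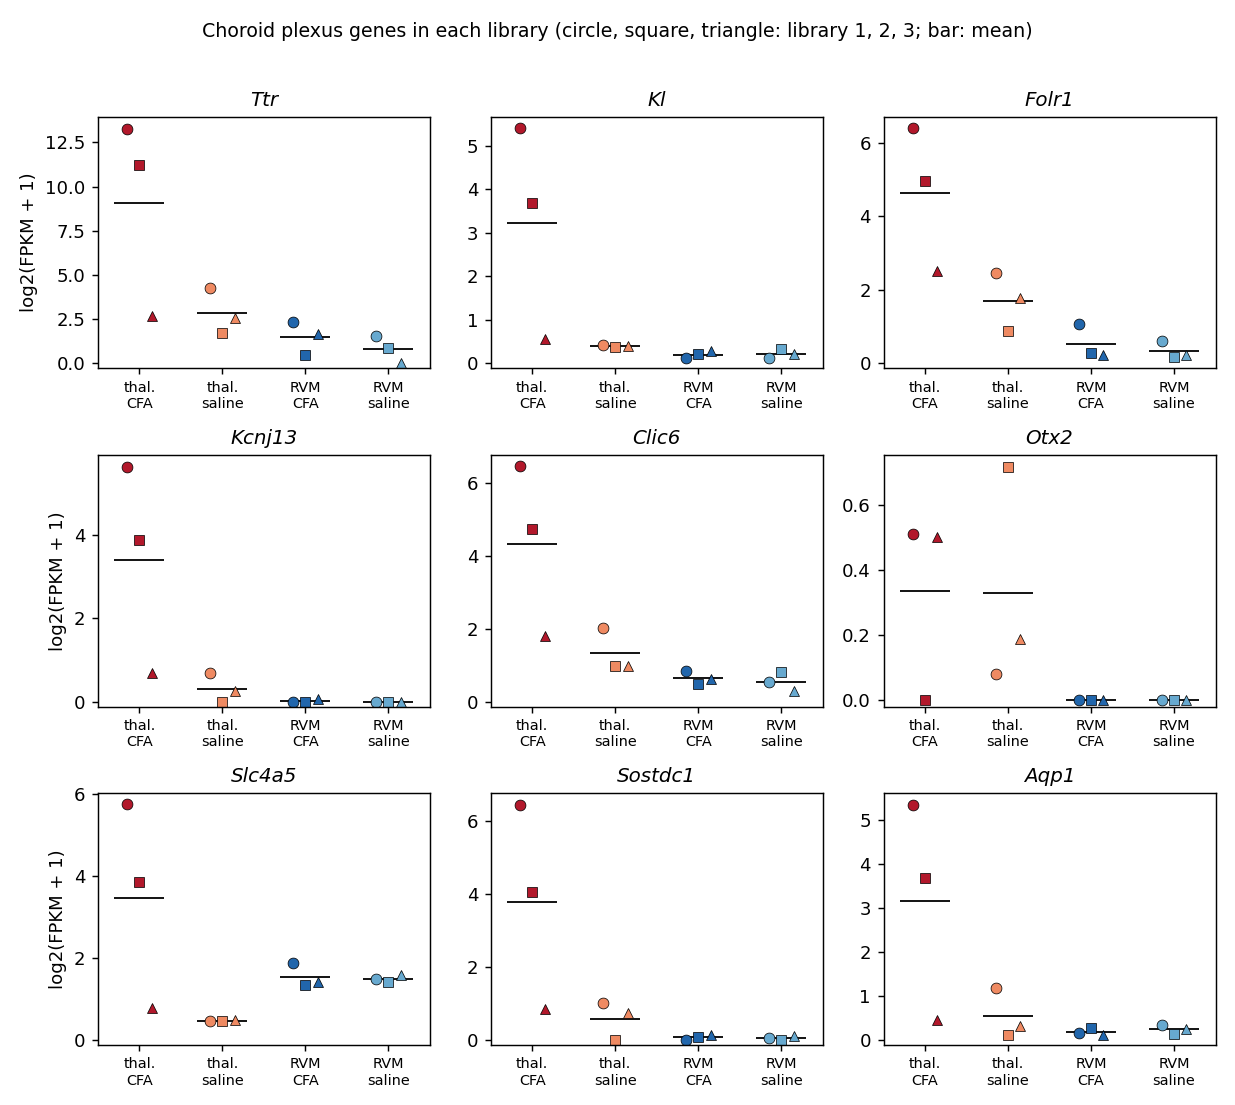
Level of each of the 9 genes as log2(FPKM + 1), with a circle, square and triangle for libraries 1, 2 and 3 and a bar at the mean of the log2 values of each group (n = 3); vertical scales differ between genes. Ttr reaches 9934 and 2361 FPKM in thalamus CFA 1 and 2 and at most 18.0 FPKM in any other library, whereas Otx2 stays at or below 0.645 FPKM throughout.

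Among the secreted products, Ttr encodes transthyretin, which carries thyroid hormone and retinol-binding protein and is the best-known protein product of this epithelium. Ttr had 9934, 2361 and 5.5 FPKM in thalamus CFA 1, 2 and 3, against 18.0, 2.31 and 4.91 FPKM in thalamus saline 1, 2 and 3. The groups overlapped, since CFA 3 lay below saline 1. In CFA 1, 132314 reads fell on this single gene, or 0.813% of the library, and in CFA 2 the number was 28134, or 0.184%. The RVM had 4.04, 0.388 and 2.14 FPKM in CFA, against 1.94, 0.818 and 0 FPKM in saline, where library 3 held no Ttr read. Sostdc1, a secreted antagonist of BMP and Wnt signalling, had 85.9, 15.6 and 0.785 FPKM in thalamus CFA, against 1.03, 0 and 0.651 FPKM in thalamus saline. Again CFA 3 lay inside the saline range. In the RVM Sostdc1 was at most 0.102 FPKM in CFA and at most 0.0685 FPKM in saline.

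Among the receptors, Kl encodes klotho, a co-receptor for an endocrine fibroblast growth factor whose ectodomain is also shed into cerebrospinal fluid. Its level was 41.3, 11.8 and 0.486 FPKM in thalamus CFA, against 0.340, 0.292 and 0.315 FPKM in thalamus saline. Here all 3 CFA libraries were above all 3 saline libraries, with CFA 3 only 1.43 times the highest of them. Folr1, the folate receptor that moves folate from blood to fluid, had 83.1, 30.0 and 4.69 FPKM in thalamus CFA, against 4.50, 0.839 and 2.44 FPKM in thalamus saline. CFA 3 was 1.04 times saline 1. These values rested on 81 of 14.98 M reads in CFA 3, or 0.000541%, and 93 of 19.1 M in saline 1, or 0.000487%. Neither receptor exceeded 1.12 FPKM in RVM CFA or 0.534 FPKM in RVM saline.

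Among the channels and transporters, Kcnj13 encodes the inward rectifier potassium channel of the apical membrane. It had 49.2, 13.9 and 0.623 FPKM in thalamus CFA, against 0.600, 0 and 0.192 FPKM in thalamus saline. CFA 3 and saline 1 rested on 13 and 15 reads, so their order was not distinguishable at this depth. Clic6, a member of the intracellular chloride channel family, had 87.9, 25.8 and 2.51 FPKM in thalamus CFA, against 3.06, 0.975 and 0.962 FPKM in thalamus saline. Slc4a5, a sodium bicarbonate cotransporter, had 52.9, 13.5 and 0.708 FPKM in thalamus CFA, against 0.376, 0.366 and 0.404 FPKM in thalamus saline. For Clic6 the groups overlapped at CFA 3 and saline 1, and for Slc4a5 they did not. Aqp1, the water channel of the apical membrane, had 39.95, 11.9 and 0.374 FPKM in thalamus CFA, against 1.27, 0.0860 and 0.250 FPKM in thalamus saline, with CFA 3 again inside the saline range.

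Otx2 did not share the order of the other genes. This homeobox factor is needed for choroid plexus development and maintenance in mice. It had 0.424, 0 and 0.415 FPKM in thalamus CFA, against 0.0578, 0.645 and 0.139 FPKM in thalamus saline. These values rest on 7, 0 and 6 reads in thalamus CFA and 1, 9 and 2 reads in thalamus saline. No read fell on it in any of the 6 RVM libraries. A count of 0 was taken to allow up to 3 reads, which is 0.203 FPKM in thalamus CFA 2 and 0.188 to 0.247 FPKM in the RVM libraries, and this limit covers counting error only. Otx2 thus gave no sign of the excess in CFA 1 and 2, where its FPKM in CFA 1 was 0.657 times the highest saline value.

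The other 8 genes differed in how far they exceeded saline. In thalamus CFA 1 the level over the highest thalamus saline library was 552 for Ttr, 131 for Slc4a5, 121 for Kl, 83.7 for Sostdc1, 82.1 for Kcnj13, 31.6 for Aqp1, 28.7 for Clic6 and 18.5 for Folr1. In CFA 2 this ratio was 131 for Ttr and 6.67 to 34.8 for the other 7. In CFA 3 it was 0.295 to 1.75 for all 8. Folr1 and Clic6, the genes with the most FPKM in saline thalamus after Ttr, had the lowest ratios. Ttr had the highest despite the highest saline level. The saline level divides these ratios, so a high level by itself lowers them. The divisor rested on 15 reads for Kcnj13, 26 for Kl and 25 for Slc4a5.

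CFA 1 exceeded CFA 2 for all 8, by factors that differed between the genes beyond counting error. The ratio of the 2 libraries was 4.21 for Ttr (95% exact binomial interval 4.15 to 4.26), 3.49 for Kl (3.22 to 3.78), 3.54 for Kcnj13 (3.12 to 4.04) and 3.41 for Clic6 (3.23 to 3.61). It was 3.36 for Aqp1 (3.07 to 3.69) and 3.93 for Slc4a5 (3.64 to 4.23), and it was lowest for Folr1 at 2.77 (2.51 to 3.06) and highest for Sostdc1 at 5.52 (5.01 to 6.10). The intervals cover counting error alone. That of Ttr meets only the interval of Slc4a5, and those of Folr1 and Sostdc1 do not meet each other. The direction of these ratios was fixed by the order of the libraries for which the genes were picked. The median of the 8 was 3.52, beside a median of 0.981 over 14615 genes, of which the 5th and 95th percentiles were 0.497 and 2.01.

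**Figure D2:**
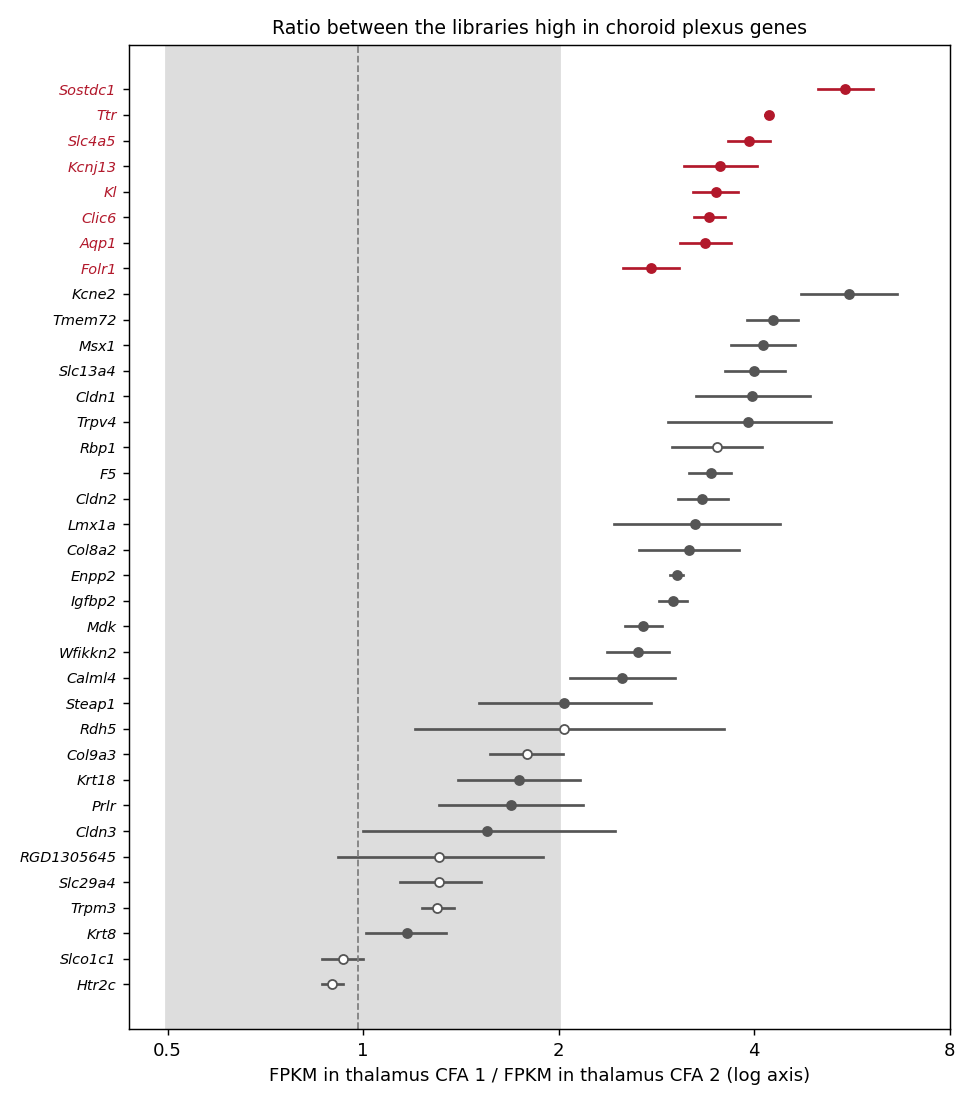
Ratio of FPKM in thalamus CFA 1 to thalamus CFA 2 on a log axis for 8 of the 9 choroid plexus genes (red; Otx2 has no read in CFA 2) and for the 28 further choroid genes described later (grey; open circles do not have CFA 1 highest and CFA 2 second of 12), with 95% exact binomial intervals; the dashed line and the shaded band are the median and the 5th to 95th percentiles of all genes. The 8 red points lie between 2.77 and 5.52, above the 95th percentile of 2.01 over all genes.

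The level of Ttr relative to other genes of the set differed between libraries. Ttr was 113 and 91.7 times Clic6 in thalamus CFA 1 and 2, on the FPKM scale that corrects for gene length, but only 2.19 times in CFA 3. In thalamus saline 1, 2 and 3 the same ratio was 5.88, 2.37 and 5.11. Likewise Ttr was 120 and 78.8 times Folr1 in CFA 1 and 2 and 1.17 times in CFA 3, against 4.0, 2.76 and 2.01 times in thalamus saline. Ttr thus stood higher relative to Clic6 and Folr1 in CFA 1 and 2 than in CFA 3 and saline. Between CFA 1 and saline 1 the gap was narrower for Kl, Slc4a5, Kcnj13 and Sostdc1. Ttr was 240, 188, 202 and 116 times these genes in CFA 1 and 52.9, 47.9, 30.0 and 17.5 times in saline 1. For Aqp1 the ratios were 249 and 14.2. Proportions among the genes other than Ttr were not compared.

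Among the saline thalami, library 1 was the highest for 7 of the 9 genes. Over the higher of the other saline libraries its level was 5.06 times for Aqp1, 3.66 for Ttr, 3.14 for Clic6, 3.12 for Kcnj13, 1.84 for Folr1, 1.58 for Sostdc1 and 1.08 for Kl. For Slc4a5 it was 0.932 times the higher of the others. Otx2 was highest in saline 2.

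The promoters of 5 of the 9 genes were found in RefSeq (GRCr8), each running from 250 bases before to 50 bases after the start of the gene. They were searched on both strands for TATAAA, for CCAAT and for TAATCC, the core letters bound by OTX factors. No matches overlapped each other in these promoters. TATAAA was in 2 of the 5, Kcnj13 and Aqp1, beside 14.2% of all 33469 promoters. CCAAT was in 3, Ttr, Kcnj13 and Slc4a5, beside 37.5%. TAATCC was in none, beside 7.17%, which says only that those letters are not in these windows. The promoter of Ttr is printed because its transcript was the most abundant, and those of Kcnj13 and Aqp1 because they hold TATAAA and their genes stood high in the same libraries. Capitals mark TATAAA and CCAAT on either strand, and each sequence runs 5′ to 3′ on the strand of the gene.
Ttr, chr18:12218508-12218807, plus strand: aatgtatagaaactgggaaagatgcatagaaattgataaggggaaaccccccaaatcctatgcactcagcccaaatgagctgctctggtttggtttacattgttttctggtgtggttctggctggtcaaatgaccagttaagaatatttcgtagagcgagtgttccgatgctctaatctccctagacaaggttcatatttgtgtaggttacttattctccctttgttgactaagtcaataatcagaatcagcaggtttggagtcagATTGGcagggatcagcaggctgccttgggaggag
Kcnj13, chr9:95518937-95519236, minus strand: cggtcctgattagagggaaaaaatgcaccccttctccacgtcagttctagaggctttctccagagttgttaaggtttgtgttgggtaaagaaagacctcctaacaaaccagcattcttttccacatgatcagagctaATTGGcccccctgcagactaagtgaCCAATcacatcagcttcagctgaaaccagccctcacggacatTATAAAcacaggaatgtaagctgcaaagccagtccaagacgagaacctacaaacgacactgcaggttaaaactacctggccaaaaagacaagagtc
Aqp1, chr4:85812534-85812833, plus strand: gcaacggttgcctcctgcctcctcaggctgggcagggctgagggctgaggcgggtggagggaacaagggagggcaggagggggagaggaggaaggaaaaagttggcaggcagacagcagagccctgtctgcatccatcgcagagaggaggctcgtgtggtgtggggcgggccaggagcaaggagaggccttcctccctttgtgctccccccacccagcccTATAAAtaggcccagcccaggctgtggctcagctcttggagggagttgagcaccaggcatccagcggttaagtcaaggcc
The table lists Ttr on the minus strand in its own unnamed build and RefSeq lists it on the plus strand in GRCr8, so positions and strands of the 2 sources are not to be set side by side. TATAAA begins at position -46 in Kcnj13 and -30 in Aqp1, and the only marked letters in Ttr are ATTGG, the reverse complement of CCAAT. Motif content of these windows thus differed between genes that shared the same order of libraries. A motif just outside a window would be missed, and whether the annotated starts are the ones used here was not tested.

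The first comparison of the design was CFA against saline in the thalamus. By limma on log2(FPKM + 1), 605 of 14722 genes tested passed an adjusted p below 0.05, or 4.11%, with 565 higher and 40 lower in CFA. The genes lower in CFA numbered 14, against 745 higher, after scaling each library to the same FPKM total, and 7, against 656 higher, with limma-voom. Of the 9 genes, 8 passed the filter of a mean of at least 1 FPKM and none of these was called. At an unadjusted p below 0.05 the number was 6, beside 3152 of 14722 genes, or 21.4%, and limma-voom on the recovered reads called 0. Otx2, with a mean of 0.14 FPKM over all libraries, was not tested. Because 5 of the 8 passed the filter only through CFA 1 and 2, and because this contrast was in view when the genes were picked, the count and the sizes are a description. The log2 difference was 6.21 ± 2.63 (SE) for Ttr, 3.19 ± 1.31 for Sostdc1, 3.10 ± 1.16 for Kcnj13, 3.02 ± 1.12 for Clic6, 2.99 ± 1.15 for Slc4a5, 2.91 ± 0.97 for Folr1, 2.82 ± 1.13 for Kl and 2.63 ± 1.17 for Aqp1. Their median was 3.01, beside -0.08 over all genes tested. Every CFA library lay above every saline library for 4 genes, Kl, Folr1, Kcnj13 and Slc4a5, as it did for 12.2% of the genes tested.

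A single library decided the call. Without CFA 3, all 8 genes passed by limma, with log2 differences of 3.97 to 9.40, in a fit that called 447 of 14689 genes, or 3.04%. Since the genes were picked for their height in CFA 1 and 2, the libraries that remain, nothing is read from these passes. Without CFA 1 and 2, only CFA 3 stood against the saline thalami, and its spread was assumed to be that of the saline group. In that fit 3 of the genes were still tested, Ttr at -0.15, Folr1 at 0.80 and Clic6 at 0.49 on the log2 scale, and none passed, beside 66 of 14507 genes, or 0.455%, by limma. Ttr thereby turned from higher to lower in CFA.

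**Figure D3:**
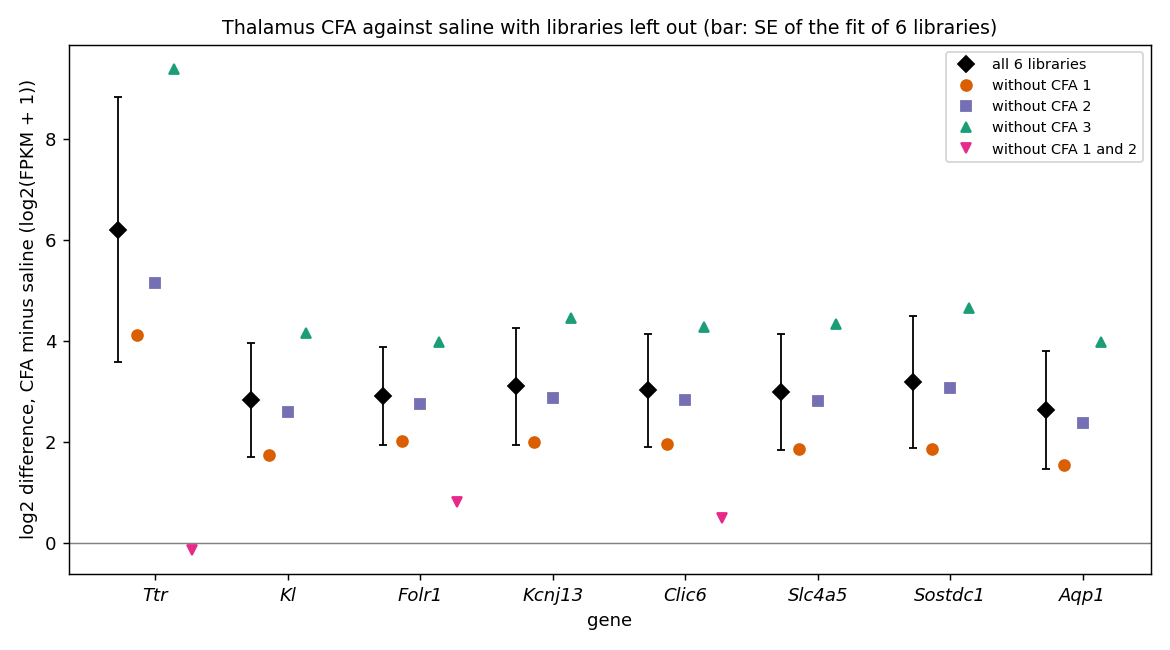
Log2 difference of CFA against saline thalamus for the choroid plexus genes with all libraries and with CFA libraries left out, on the log2(FPKM + 1) scale; bars are the standard error of the fit of all 6 libraries. Without CFA 3 the differences are 3.97 to 9.40, and without CFA 1 and 2 the 3 genes still tested lie between -0.15 and 0.80.

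In the RVM, the levels of the 9 genes were low in both treatments. CFA 1 was the highest RVM library for 4 of them, Ttr, Folr1, Clic6 and Slc4a5. Only Ttr and Slc4a5 reached a mean of 1 FPKM and were tested. Ttr differed between CFA and saline by 0.68 ± 0.55 (SE) on the log2 scale, with an adjusted p of 0.637 by limma over 14289 genes. Slc4a5 had 2.65, 1.51 and 1.65 FPKM in RVM CFA, against 1.82, 1.65 and 1.98 FPKM in RVM saline, and the groups overlapped. Its log2 difference was 0.04 ± 0.17 with an adjusted p of 0.937 by limma. No gene of the table passed in this comparison, that is 0%, by limma or by limma-voom, and 2030 had an unadjusted p below 0.05 by limma. The difference of the CFA effects, thalamus minus RVM, was 5.54 ± 2.94 for Ttr and 2.95 ± 1.27 for Slc4a5 on the log2 scale. Neither passed, and of the 13738 genes tested by limma 0 passed, or 0%, as with limma-voom, with 1560 at an unadjusted p below 0.05.

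The last comparison set saline thalamus against saline RVM, where dissection and region cannot be told apart. Of the 9 genes 4 were tested and 3 passed, in a comparison in which 6523 of 14396 genes, or 45.3%, passed by limma. Ttr was higher in saline thalamus by 2.04 ± 0.68 (SE) on the log2 scale, with an adjusted p of 0.0484 by limma. Folr1 was higher by 1.36 ± 0.40, with an adjusted p of 0.0302 by limma. Clic6, at 0.78 ± 0.33 with an adjusted p of 0.0941 by limma, did not pass, although all 3 saline thalami lay above all 3 saline RVM libraries. Both calls were lost with limma-voom, at adjusted p of 0.107 for Ttr and 0.0503 for Folr1, and with single libraries left out. By limma the adjusted p of Ttr became 0.0586, 0.111 and 0.142 without RVM saline 1, 2 and 3, and 0.0619 and 0.0855 without thalamus saline 1 and 3. That of Folr1 became 0.0581, 0.0903 and 0.0876 without RVM saline 1, 2 and 3, and 0.0799 without thalamus saline 3; without thalamus saline 1 its mean fell below the filter.

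Slc4a5 went the other way. Its saline levels were 0.376, 0.366 and 0.404 FPKM in the thalamus, against 1.82, 1.65 and 1.98 FPKM in the RVM, with no overlap. The log2 difference was -1.02 ± 0.15, with an adjusted p of 0.00206 by limma, and it stayed between -2.15 and -0.94 in every alternative in which it was tested. With any of the RVM saline libraries left out its mean was below 1 FPKM and it was not tested. Thus the gene that stood 131 times above saline in thalamus CFA 1 was, outside CFA 1 and 2, more abundant in the RVM than in the thalamus in all 6 RVM libraries. The split of called genes depended on the scaling, with 3250 higher and 3273 lower with the deposited scaling and 4566 higher and 2003 lower after scaling each library to the same FPKM total. The median log2 difference of all genes was 0.14 under that scaling and -0.02 with the deposited scaling, and the direction of the 4 genes tested held under it.

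In addition, 28 further genes known from this epithelium were read across the libraries. They were picked with earlier results of these data known. Of these, 20 had thalamus CFA 1 highest and CFA 2 second of 12, and 8 did not. Among the 24 with a mean of at least 1 FPKM, 16 had this order, beside 3.25% of all such genes. Some of them, such as Cldn2 and F5, reached that mean only through CFA 1 and 2. The filter thus favours this order, and the count is a description. Over all 28 the ratio of CFA 1 to CFA 2 had a median of 2.68 and ran from 0.896 for Htr2c to 5.59 for Kcne2. Cldn2, a tight junction protein of the epithelium, had 27.3, 8.18 and 0.0132 FPKM in thalamus CFA, against 0.0771, 0 and 0.0132 FPKM in thalamus saline, and was at most 0.0135 FPKM in the RVM. Enpp2, the enzyme autotaxin, which oligodendrocytes also make, had 654, 215 and 47.3 FPKM in thalamus CFA, against 58.3, 50.8 and 68.7 FPKM in thalamus saline. None of the 25 tested passed in CFA against saline thalamus by limma, with 9 at an unadjusted p below 0.05, beside the 21.4% of all genes given above, and a median log2 difference of 1.51. Htr2c, the serotonin receptor that this epithelium shares with neurons, did not take this order: it had 67, 74.8 and 60.8 FPKM in thalamus CFA, against 70.6, 58.4 and 54.5 FPKM in thalamus saline.

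Of 15 further genes of ion and water transport, which many brain cells use, 2 had the order of CFA 1 highest and CFA 2 second, and none passed in CFA against saline thalamus by limma, with 1 at an unadjusted p below 0.05. Slc4a2 and Car12 were the pair, and Car12, a membrane carbonic anhydrase, had 48.1, 13.5 and 2.33 FPKM in thalamus CFA, against 4.42, 2.68 and 2.48 FPKM in thalamus saline.

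The genes with the most similar pattern were ranked among 12524 genes by the root mean square difference of their centred log2(FPKM + 1) profile from the mean profile of the 9, over the 12 libraries. The 12 nearest were Mfrp, F5, Cldn2, Slc13a4, Pla2g5, Pon1, Slco1a2, Prr32, Orm1, Msx1, Calml4 and Lrrc10b, with differences of 0.326 to 0.742. Of these, 5 were among the 28 further choroid genes, F5, Cldn2, Slc13a4, Msx1 and Calml4. Mfrp, a frizzled-related membrane protein, was nearest, with 79.9, 21.0 and 2.44 FPKM in thalamus CFA, against 1.27, 0.609 and 1.40 FPKM in thalamus saline. Orm1, which encodes the acute-phase plasma protein orosomucoid, had 15.5, 11 and 1.83 FPKM in thalamus CFA and no read in any of the 3 thalamus saline libraries. The likeness rests on CFA 1 and 2, since without these libraries none of the 12 was still among the nearest 12. Within the 9 genes, Kcnj13 was closest to the mean of the others at 0.140 and Ttr farthest at 2.59, with Otx2 next at 1.94.

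Markers of neighbouring tissues were read beside these values. Of 14 ependymal and motile cilia genes, which mark the ciliated lining of the ventricles, 2 had CFA 1 highest and CFA 2 second. Among the 10 with a mean of at least 1 FPKM the number was 1. Ccdc153 had 5.5, 14.6 and 6.90 FPKM in thalamus CFA, against 14, 4.12 and 5.98 FPKM in thalamus saline. Rarres2 had 48.8, 21.3 and 20.2 FPKM in thalamus CFA, against 13.3, 7.63 and 9.71 FPKM in thalamus saline. Cfap126 had 23.7, 21.3 and 15.6 FPKM, against 17.8, 13.8 and 15.5 FPKM. Rarres2 and Cfap126 had the highest mean levels of the list. Rarres2 alone in the list had every CFA library above every saline library. The summed level of the ependymal genes was 80.0 to 130 FPKM in thalamus CFA, against 47.8 to 110 FPKM in thalamus saline. The order was absent from 9 pineal, 13 retinal, 10 thalamic, 10 cortical and hippocampal, 10 hypothalamic, 10 hindbrain and 10 liver and blood genes. It was present in 4 of 8 habenula genes and 1 of 15 fibroblast, meningeal and mural genes, beside 3.25% of all genes. The habenula genes summed to 149, 123 and 97.2 FPKM in thalamus CFA, against 117, 18.65 and 106 FPKM in thalamus saline. Part of the extraction wording in the labels speaks of retinas; the 13 retinal genes summed to 23.0 to 27.5 FPKM in thalamus CFA, against 24.6 to 33.0 FPKM in thalamus saline, and to 40.8 to 42.3 FPKM in RVM CFA, against 43.3 to 53.0 FPKM in RVM saline. Rlbp1, a retinaldehyde-binding protein and the most abundant of them, had 13.4 to 16.9 FPKM in thalamus CFA, against 17.1 to 24 FPKM in thalamus saline, and Rpe65, of the retinal pigment epithelium, was at most 4.84 FPKM in any library.

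Other lists also differed between these libraries. The summed FPKM of the 10 thalamic neuron genes was 199.9, 682 and 514 in thalamus CFA 1, 2 and 3, against 534, 1073 and 902 in thalamus saline 1, 2 and 3. It was lowest in the library with the most Ttr, CFA 1. CFA 2, with the second most Ttr, had a higher sum than CFA 3 and saline 1. The 10 cortical and hippocampal genes summed to 331, 83.9 and 48.8 FPKM in thalamus CFA, against 192, 63.4 and 97.4 FPKM in thalamus saline. Slc17a7 made up 225 FPKM of the sum in CFA 1 and 100 FPKM in saline 1. C1ql2 and Prox1 of this list were lowest in saline 1 among the thalamus libraries, at 2.99 and 4.2 FPKM. Fibroblast, meningeal and mural genes summed to 1742, 523 and 506 FPKM in thalamus CFA, against 482, 353 and 466 FPKM in thalamus saline. Most of these sums was Ptgds, a prostaglandin D synthase, with 1370, 387 and 329 FPKM in thalamus CFA, against 329, 222 and 315 FPKM in thalamus saline. The mean centred log2 level of that list, which weights its genes equally, was 1.51, -0.01 and 0.22 in thalamus CFA 1, 2 and 3, so that CFA 2 lay below CFA 3. Of the liver and blood genes 2 passed in CFA against saline thalamus by limma, S100a8 and S100a9, which encode the calprotectin subunits of neutrophils. S100a9 had 18.7, 4.46 and 14.9 FPKM in thalamus CFA, against 0.286, 0.354 and 0.343 FPKM in thalamus saline, and here CFA 3 was second of the CFA libraries. Thalamus CFA 1 and saline 1, each highest of its group in cortical and hippocampal genes, were also each highest of its group for most choroid genes. Saline 1 had a cortical and hippocampal sum of 192 FPKM and 18.0 FPKM of Ttr, and CFA 2 had 83.9 FPKM and 2361 FPKM. The part of these other tissues in the choroid gene levels was not tested.

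**Figure D4:**
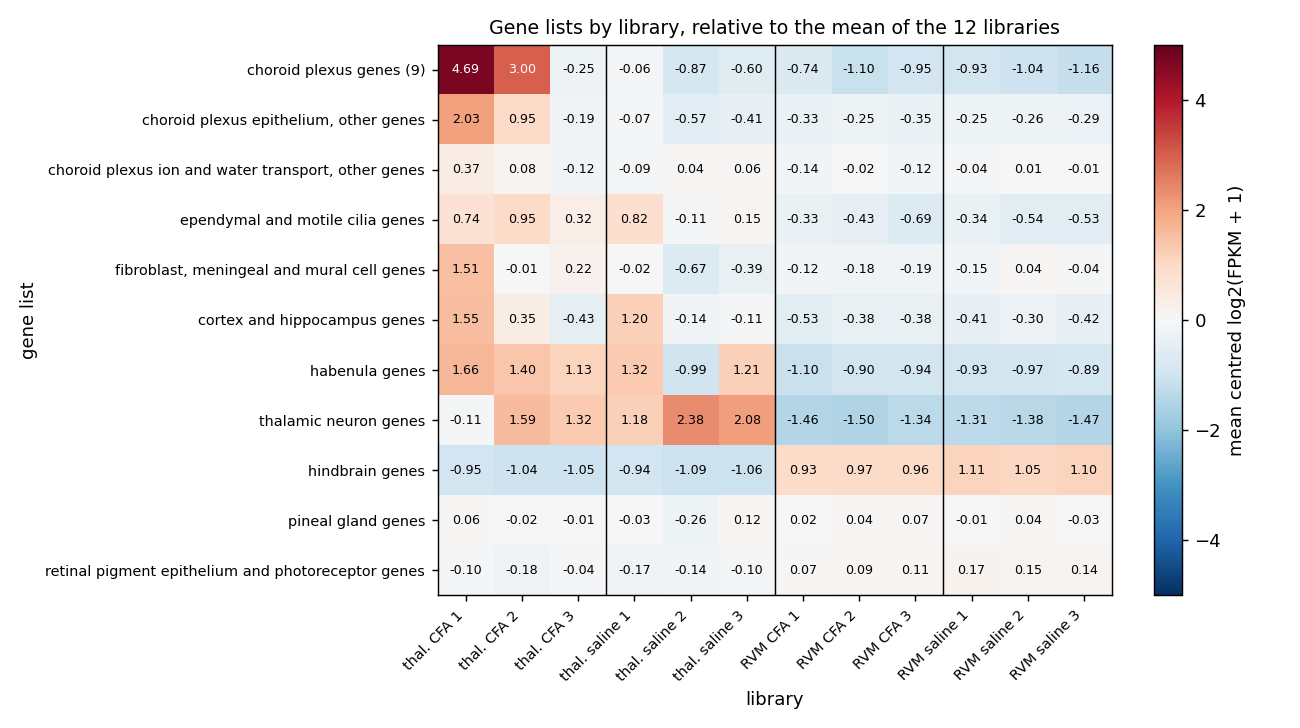
Mean centred log2(FPKM + 1) of the choroid plexus genes and of 10 of the 12 lists in each library, with thalamus to the left of RVM and CFA to the left of saline; red is above and blue below the mean of the list over the 12 libraries. The choroid lists are highest in thalamus CFA 1 and 2, and the thalamic neuron list is lower in thalamus CFA 1 than in the other thalamus libraries.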

How the data were processed

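RNA from 12 rat libraries was analysed, 3 per group, with groups taken from the tissue and treatment labels. Trizol extraction and an Illumina TruSeq kit are named per the labels' protocols. The authors deposited 1 table of FPKM values per gene and library, with gene length, coordinates and biotype, per the file headers. For the aligner, counter, genome build, annotation and strand setting, nothing is stated in the labels or the table.

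FPKM multiplied by gene length was a whole number of steps in each library for all values within a tolerance of 0.01, and each step was taken as 1 read. No pair of replicates agreed within sampling noise. Tests used limma 3.58.1 in R 4.3.3 with a trend on log2(FPKM + 1), for genes averaging 1 FPKM or more in the libraries of the comparison, with Benjamini-Hochberg adjustment over all genes tested. Differences on this scale understate the change of low genes. The script was tested on simulated data.

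The 9 genes and 12 lists were chosen with earlier results of these data known. Of 153 list symbols, 152 matched, 2 through synonyms. Named genes were all 9, the 12 of most similar pattern, and, from the lists, genes among the 4 of highest mean FPKM or that passed, of which only some are printed here; Car12 and Ccdc153 were picked after their values were seen. Alternatives were another pseudocount, other filters, scalings, quality weights, limma-voom, a replicate block and leaving out libraries.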

Additional observations from a re-analysis of the deposited data

How the results depend on the processing

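None of the 9 choroid plexus genes was called in the thalamus under any alternative that kept all libraries. Leaving out each thalamus library in turn gave 0 to 8 called, with 8 without CFA 3, where 3.04% of all genes tested were called and the libraries that remain are those for which the genes were chosen. The total of called genes, 605, became 298 with a filter at 5 FPKM, 1010 with quality weights, 66 without CFA 1 and 2, and 309 to 547 with a library left out, with 321, 309 and 394 without saline 2, saline 3 and CFA 1. Ttr reversed to -0.15 in the thalamus and to -0.83 in the difference of CFA effects without CFA 1 and 2, as these fits drop its high libraries. In the RVM, Slc4a5 ranged from -0.12 to 0.15 with a library left out, and the count of called genes was 1 with no filter and 0 to 484 with a library left out, 484 without RVM CFA 2. For the difference of CFA effects the count was 11 with no filter and 0 to 15 with a library left out, 15 without thalamus saline 1. In saline thalamus against saline RVM, 3 choroid genes were called, 1 with limma-voom, 0 with a filter at 5 FPKM, where none was tested, and 0 to 3 with a library left out. Ttr there had adjusted p of 0.0597 with a pseudocount of 0.1 and 0.0842 with no filter by limma. The cause of these shifts was not tested.

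Libraries share replicate numbers, and whether the numbers pair them was not settled. Deviations of same-numbered thalamus libraries correlated at 0.358, 0.057 and 0.267, and those of differently numbered ones at -0.45 to 0.316. In the RVM the same-numbered values were -0.027, 0.001 and -0.008, and the others -0.013 to 0.021. With the replicate block 1338 thalamus genes passed, 755 higher and 583 lower, and none of the 9 choroid plexus genes was among them. The depth limits the lowest genes, with Otx2 on at most 9 reads per library.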
